A study of Mus musculus with 15 samples.

Results

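The genes described here are 5 autosomal genes, Wdfy1, Gm15446, 1010001B22Rik, Cep85 and Ankrd63, picked from a table of 45706 genes because the level of each seemed to set 1 of 4 mouse genotypes apart from the others. They were chosen from these same RNA counts, so their differences between genotypes are a description and carry no test. All 5 were among the 19146 genes with enough counts to be tested, of which 18376 are autosomal. 1010001B22Rik entered through the libraries in which it is high. The working name of the group, genes with on-off levels, held for 2 of the 5. Gm15446 and 1010001B22Rik were near or at 0 in WT and clearly counted in every other library. Wdfy1, Cep85 and Ankrd63 were counted in every library and differed by degree.

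RNA was sequenced from lineage-negative bone marrow cells, the immature fraction left after magnetic removal of mature blood cells, taken from the femur of mice that had received a second, serial transplant of blood stem and progenitor cells. Donor cells were WT (n = 3), Puma-/- (n = 4), G3 mTerc-/-Puma+/+ (n = 4) or G3 mTerc-/-Puma-/- (n = 4). Puma (listed as Bbc3) encodes a protein that triggers apoptosis downstream of p53, mTerc encodes the RNA template of telomerase, and G3 marks the third generation bred without it. Both alleles are missing from the germ line, in every donor cell type. Donors were young adult C57BL/6J mice carrying the CD45.2 allele, and the lethally irradiated hosts were CD45.1 B6.SJL mice in all 4 groups. The RNA fraction is not stated to have been sorted for CD45.2, so host cells may remain, and the animals behind each library and their sex are not given in the labels.

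Wdfy1 encodes an endosomal protein with WD repeats and a FYVE domain, which binds a lipid of early endosomes, and it is known as an adaptor that brings TRIF to Toll-like receptors. Cep85 encodes a centrosomal protein that acts in centriole assembly. Ankrd63 encodes a protein of ankyrin repeats whose role is little described. Zinc finger genes of the C2H2 class lie in clusters in the mouse genome, and many of their proteins bind DNA and recruit repressors. Long intergenic RNAs (lincRNAs) such as 1010001B22Rik are transcripts with no long reading frame.

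Gm15446 and 1010001B22Rik lie on the same stretch of chromosome 5 of GRCm38. Gm15446 (ENSMUSG00000090015) runs from 109923400 to 109943936 on the plus strand, with 5 exon blocks and 3780 exonic bases, and GENCODE vM21 lists it as protein-coding. The longest reading frame of its 3 transcripts has 553 residues with 16 C2H2 finger patterns, beside 526 residues and 15 patterns in its neighbour Zfp932. 1010001B22Rik (ENSMUSG00000097863) runs from 109995511 to 109996398 on the minus strand, with 2 exons and 589 bases. Its longest reading frame has 37 residues. Its end nearest Zfp932 is its start, so the lincRNA and the zinc finger gene begin back to back with 122 bases between their starts at 109996398 and 109996521.

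The start regions of the chromosome 5 pair are printed because these are the genes that were off in WT and on elsewhere. The first window (chr5:109996271-109996520, plus strand, GRCm38, from the RefSeq promoter table) ends at the base before Zfp932. Capitals mark the 128 bases that lie in the first exon of 1010001B22Rik, which is read on the opposite strand. The second window (chr5:109933313-109933562, plus strand, same source) holds the 250 bases before the RefSeq start of Gm15446, which lies inside the longer GENCODE gene, and no letters are in capitals.
1010001B22Rik and Zfp932: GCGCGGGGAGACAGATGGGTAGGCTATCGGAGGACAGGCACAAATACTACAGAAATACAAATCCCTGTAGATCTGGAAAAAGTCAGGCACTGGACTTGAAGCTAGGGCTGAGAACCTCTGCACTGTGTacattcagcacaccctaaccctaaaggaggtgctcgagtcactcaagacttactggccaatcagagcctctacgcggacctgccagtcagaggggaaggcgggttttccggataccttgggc
Gm15446: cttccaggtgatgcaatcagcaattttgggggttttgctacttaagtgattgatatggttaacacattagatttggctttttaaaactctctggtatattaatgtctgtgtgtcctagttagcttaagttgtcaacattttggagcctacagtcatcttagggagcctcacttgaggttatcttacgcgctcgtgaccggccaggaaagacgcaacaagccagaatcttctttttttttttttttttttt
The letters CCAAT, searched on both strands without overlap with another motif, occurred once in the shared window, between the starts, and not in the Gm15446 window. They were found in 33.8% of the 32536 distinct windows of 250 bases in the table. TATAAA and GGGCGG, found in 12.3% and 33.0% of those windows, were in neither. G and C made up 53.6% of the shared window and 38.8% of the Gm15446 window, beside a median of 52.4% over all windows.

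Gm15446 was nearly silent in WT. Normalized CPM (read counts scaled to library size, after TMM) was 0.365, 0.344 and 0.443 in the 3 WT libraries, from 37, 37 and 50 counts. In Puma-/- it was 6.60, 8.46, 8.17 and 7.64. It was 9.04, 8.79, 9.61 and 9.20 in G3 mTerc-/-Puma+/+, and 7.66, 8.89, 9.57 and 8.10 in those labelled G3 mTerc-/-Puma-/-. Every WT library was therefore far below every other library, and the 12 others lay close together. Summed over libraries, the ratio of the others to WT was 21.9 (exact 95% interval 18.4 to 26.4, which covers counting error only). The nearest libraries, WT replicate 3 and Puma-/- replicate 1, were still 14.9-fold apart. Between the other 3 genotypes the means were 7.71 ± 0.820 (SD, n = 4), 9.16 ± 0.342 (n = 4) and 8.55 ± 0.850 (n = 4) in the same order. The spread of those labelled G3 mTerc-/-Puma-/- overlapped that of Puma-/- and that of G3 mTerc-/-Puma+/+. Those last 2 genotypes did not overlap each other, with Puma-/- at up to 8.46 and G3 mTerc-/-Puma+/+ from 8.79.

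1010001B22Rik was rarely counted anywhere and absent or almost absent in WT. The 3 WT libraries had 0, 1 and 0 counts, where a count of 0 allows up to 3 counts, or no more than 0.0296 CPM at the lowest depth. Puma-/- libraries had 24, 27, 32 and 34 counts, G3 mTerc-/-Puma+/+ libraries 19, 14, 19 and 34, and those labelled G3 mTerc-/-Puma-/- 24, 14, 22 and 30. The groups did not overlap. On the normalized CPM scale the 12 libraries outside WT spanned 0.121 to 0.318, and the ratio of summed counts, others to WT, was 65.7, with an exact 95% counting interval of 11.7 to 2605 that shows how little a single WT count fixes. Among the genotypes that had the transcript, the means were 0.259 ± 0.0481 for Puma-/-, 0.189 ± 0.0866 for G3 mTerc-/-Puma+/+ and 0.175 ± 0.0501 for those labelled G3 mTerc-/-Puma-/- (SD, n = 4 each), and these ranges overlapped. In bulk RNA of this kind, fewer cells with a transcript and less of it per cell cannot be told apart.

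**Figure D1:**
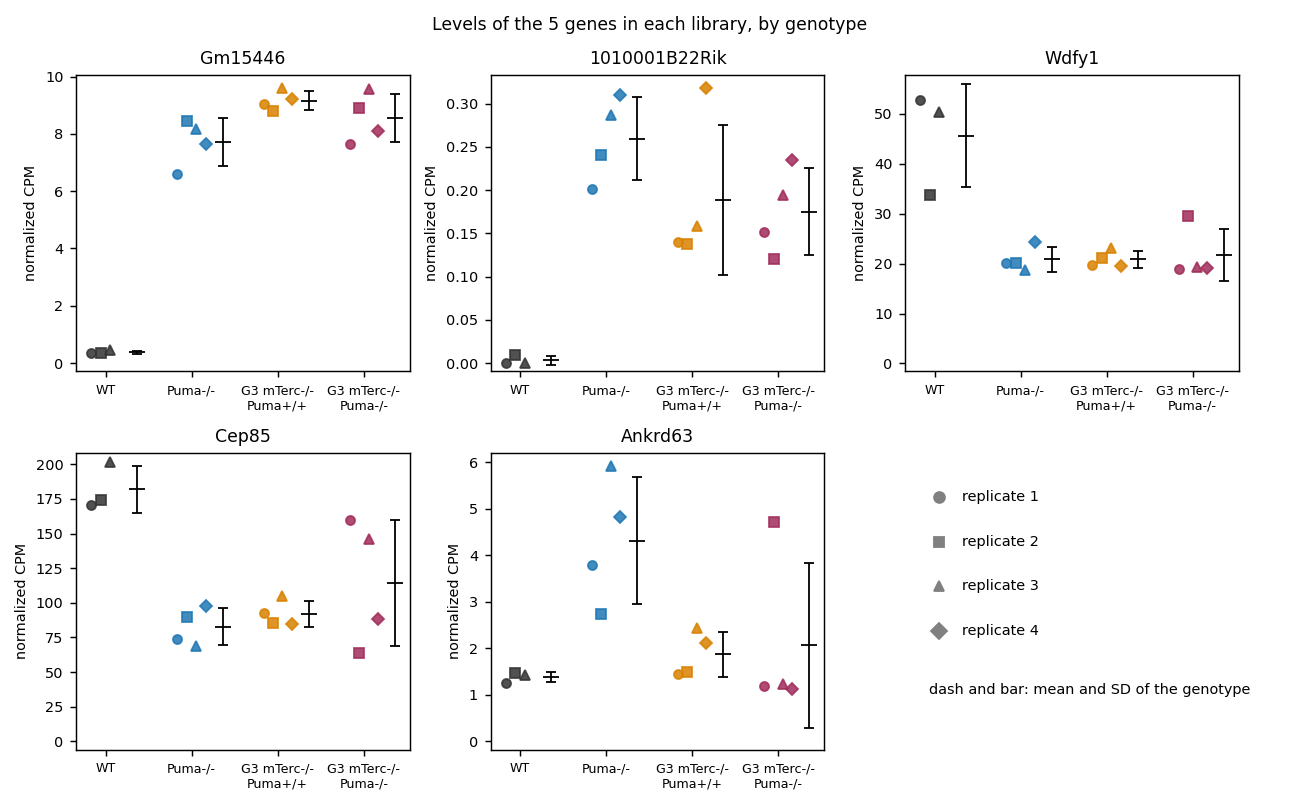
Normalized CPM (y axis, linear) of the 5 genes in each of the 15 libraries, by genotype (x axis); each point is a library, the marker shape gives its replicate number, and the dash and bar give the mean and SD of the genotype. Gm15446 is at 0.344 to 0.443 in WT and at 6.60 to 9.61 elsewhere, 1010001B22Rik has 0, 1 and 0 counts in WT, and the other 3 genes are present in every library.

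These were the only autosomal genes kept by the count filter whose WT libraries lay below all others by a gap of at least 4-fold on the log2 CPM scale with a prior count of 2 (2 of 18376, or 0.0109%), and no autosomal gene had such a gap above the others in WT. By that gap Gm15446 was first and 1010001B22Rik second of 18376. By the difference of mean log2 CPM they were first (-4.40) and eighth (-3.44). Since the pair was chosen for this pattern, the ranks describe the choice. Over all 15 libraries their log2 CPM had r = 0.95, and r = -0.24 over the 12 libraries outside WT, so that the shared pattern consisted of the step between WT and the rest. With a gap of at least 2-fold, Gm6257 and 9430002A10Rik, both higher in Puma-/-, were the other autosomal genes found in any genotype.

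**Figure D2:**
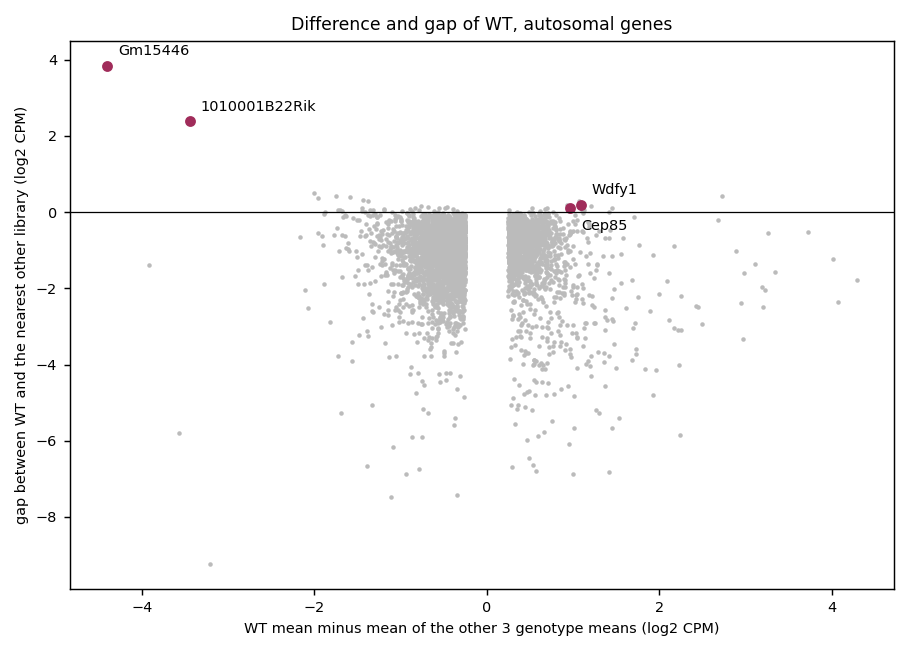
For autosomal genes with a difference of at least 0.25, the x axis gives the WT mean minus the mean of the other 3 genotype means (log2 CPM), and the y axis the gap between the WT libraries and the nearest other library (log2 CPM, above 0 where they do not overlap). Gm15446 and 1010001B22Rik lie apart from the grey cloud, while Wdfy1 and Cep85 lie just above the line at 0.

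Sequence shared with other genes bears on how reads could be placed. Of the distinct 50-base windows of Gm15446 transcripts, 31.5% also occurred in transcripts of Zfp932, and 67.3% were found in no other gene. For 1010001B22Rik, 79.8% were found in no other gene, and 15.6% also occurred in Gm26808, a lincRNA that overlaps the Gm15446 start on the opposite strand. Gm26808 itself was under the count filter, with means of 0.0436 normalized CPM in WT and 0.0425 elsewhere. Wdfy1, Cep85 and Ankrd63 had 98.3%, 91.7% and 100% of their windows to themselves. The sequenced read pairs were longer than these windows, and how many reads were lost or split between the copies was not tested.

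Wdfy1 was higher in WT, but present throughout. The gene (ENSMUSG00000073643) lies on chromosome 1 from 79702262 to 79776143 on the minus strand. Its normalized CPM was 52.7, 33.8 and 50.3 in WT, and 20.1, 20.1, 18.7 and 24.4 in Puma-/-. G3 mTerc-/-Puma+/+ libraries had 19.7, 21.2, 23.2 and 19.6, and those labelled G3 mTerc-/-Puma-/- had 18.9, 29.5, 19.2 and 19.1. No WT library overlapped the others, yet WT replicate 2 was only 1.14-fold above replicate 2 of those labelled G3 mTerc-/-Puma-/-. Without that library, the distance to the next highest, Puma-/- replicate 4, was 1.38-fold. The log2 fold change of WT against the mean of the other 3 was 1.11 (SE 0.140), and the means of the other 3 genotypes, 20.8, 20.9 and 21.7, lay within their spread.

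The 5′ end of Wdfy1 shares 126 exonic bases with that of Mrpl44, which encodes a protein of the mitochondrial ribosome and lies on the opposite strand. Mrpl44 had 45.1, 53.9 and 51.0 normalized CPM in WT and 44.4 to 65.4 in the 12 other libraries, with a log2 fold change of -0.11 (SE 0.0995, edgeR adjusted p = 0.990). The overlap covers 1.94% of the exonic bases of Wdfy1, and the strand setting of the counting is not given in the sources used here. Mrpl44 thus did not show the step of Wdfy1.

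Cep85 split the group labelled G3 mTerc-/-Puma-/-. The gene (ENSMUSG00000037443) lies on chromosome 4 from 134129858 to 134187112 on the minus strand, and it was the most abundant of the 5 also per length, at a median of 17.6 normalized CPM per kb of exon over the libraries, beside 3.10 for Wdfy1, 2.16 for Gm15446, 0.308 for Ankrd63 and 0.270 for 1010001B22Rik. WT libraries had 170, 174 and 201 normalized CPM. Puma-/- libraries had 74.0, 90.0, 69.0 and 97.4, and G3 mTerc-/-Puma+/+ libraries 92.7, 85.5, 105 and 84.5. Those labelled G3 mTerc-/-Puma-/- had 159, 64.1, 146 and 88.0, so that replicates 1 and 3 sat near WT, replicate 4 lay among the other genotypes, and replicate 2 was below every other library. Their mean of 114 ± 45.7 (SD, n = 4) thus described none of its libraries, and the nearest WT library was 1.07-fold above replicate 1 of that group. The log2 fold change of WT against the mean of the other 3 was 0.93 (SE 0.193).

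Ankrd63 was highest in Puma-/- and low in the other genotypes except for a single library. The gene (ENSMUSG00000078137) is a single exon on chromosome 2, from 118699103 to 118703963 on the minus strand. Its normalized CPM was 3.78, 2.73, 5.92 and 4.83 in Puma-/-, from 307 to 661 counts, and 1.26, 1.47 and 1.43 in WT. G3 mTerc-/-Puma+/+ libraries had 1.45, 1.50, 2.44 and 2.11. Those labelled G3 mTerc-/-Puma-/- had 1.18, 4.73, 1.23 and 1.13, and replicate 2 lay inside the Puma-/- range, above 2 of its 4 libraries. Without replicate 2 the groups did not overlap, with Puma-/- replicate 2 at 1.12-fold above G3 mTerc-/-Puma+/+ replicate 3. The log2 fold change of Puma-/- against the mean of the other 3 was 1.30 (SE 0.329).

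For comparison, WT libraries did not overlap the rest in 20 autosomal genes that were higher (0.109%) and in 32 that were lower (0.174%). In Puma-/- 139 were higher without overlap (0.756%). 4 of the 5 genes are in these WT sets by their choice, Wdfy1 and Cep85 among the higher and the chromosome 5 pair among the lower genes, and Ankrd63 is in none with all 15 libraries.

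Several measured properties of the libraries were set beside these levels. The targeted genes were read first. Bbc3 had 5.04 to 6.83 normalized CPM in Puma-/-, 9.71 to 23.6 in WT and 11.8 to 20.8 in G3 mTerc-/-Puma+/+, but 13.5 to 17.1 in those labelled G3 mTerc-/-Puma-/-, which did not show the lower level of the other Puma-/- group. Terc had 4 to 17 counts in each WT and Puma-/- library and 0 or 1 in the others. Depth ran from 102790519 to 158367059 counts. All 8 progenitor markers were above 1 CPM in every genotype, and their sum was 1138 to 1414 CPM except in those labelled G3 mTerc-/-Puma-/-, where it began at 718. That lowest library, replicate 2, had the highest erythroid marker sum (816 CPM, beside 162 to 242 in the other 3 genotypes). Its myeloid sum (1582 CPM, beside 473 to 1208) and its T and natural killer (NK) cell sum (612 CPM, beside 306 to 479) were also the highest. S100a8 (1407 CPM) and Nkg7 (565 CPM) made up most of these 2 sums, while the myeloid gene Csf1r was lowest there, at 26.0 CPM. The same library stood apart on the first principal component and carried the high Ankrd63 and Wdfy1 values. The part of cell composition in those values was not tested.

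Sex and lineage genes also differed in Puma-/-, the genotype with the highest mean Ankrd63. Xist, the RNA of the inactive X chromosome, had 466 to 868 normalized CPM in Puma-/-, while Ddx3y of the Y chromosome had at most 0.0448. Xist was also high in WT replicates 1 and 2, at 418 and 212, and in replicates 1 and 4 of those labelled G3 mTerc-/-Puma-/-, at 663 and 446. Unlike Puma-/-, those 4 libraries also had Ddx3y, at 21.3, 26.5, 2.88 and 4.27 normalized CPM in the same order. Their Ankrd63 levels were 1.26, 1.47, 1.18 and 1.13, below every Puma-/- library. The part of sex in the Ankrd63 levels was not tested. The summed level of the 3 megakaryocyte markers was 268 to 437 CPM in Puma-/-, above 108 to 247 in the other 3 genotypes, with all 3 above 1 CPM in each genotype. In replicate 2 of those labelled G3 mTerc-/-Puma-/-, which had high Ankrd63, that sum was within the lower range, and the part of megakaryocyte cells in the Puma-/- level was not tested.

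Neighbouring genes were tested next, since the choice of the 5 genes did not use them. Over the genes within 1 Mb of each gene, in the contrast of the genotype that the gene sets apart against the mean of the other 3, the edgeR quasi-likelihood test, adjusted by Benjamini-Hochberg over all 19146 genes, called 0 of 13 around Wdfy1, 0 of 43 around the chromosome 5 pair and 0 of 51 around Cep85. Unadjusted p was under 0.05 for 1, 2 and 1 of them. Over all genes 0.0522% were called in the WT contrast, 10 in number, and 715 had an unadjusted p under 0.05. The 10 include Gm15446, 1010001B22Rik and Wdfy1, which were chosen from these counts and carry no test here, and genes of the Y chromosome. DESeq2 called no further gene in these WT windows. Around Ankrd63 1 of 44 was called and 9 had an unadjusted p under 0.05, where over all genes 0.413% were called in the Puma-/- contrast and 1843 of 19146 had such a p.

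Zfp932, the zinc finger gene that starts beside 1010001B22Rik, did not share its on-off step. Its mean was also lower in WT, at 10.2 normalized CPM beside 14.5 in the others, but it was well counted there. It had 10.5, 11.5 and 8.73 normalized CPM in WT, 11.3 to 15.2 in Puma-/-, 11.8 to 17.4 in G3 mTerc-/-Puma+/+, then 14.1 to 16.9 in those labelled G3 mTerc-/-Puma-/-. WT replicates 1 and 3 were below all others, and replicate 2 lay just above the lowest of them. The log2 fold change was -0.50 (SE 0.130, edgeR adjusted p = 0.760, with none lower among the 43 tested neighbours). On the other side of Gm15446, the lincRNA Gm26779 had 0.14 (log2 fold change, SE 0.264, edgeR adjusted p = 0.990).

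The genes next to Wdfy1 and Cep85 showed no called difference either. Serpine2, which encodes a serine protease inhibitor, had -0.51 (log2 fold change in WT, SE 0.299, edgeR adjusted p = 0.990), and Ap1s3, a subunit of a clathrin adaptor, 0.08 (SE 0.187, adjusted p = 0.991). Beside Cep85, the values were 0.23 for Sh3bgrl3 (SE 0.120, adjusted p = 0.990) and 0.14 for Cnksr1 (SE 0.518, adjusted p = 0.995). Ankrd63 lies between Pak6, a protein kinase gene, and Plcb2, a phospholipase gene. In Puma-/-, Pak6 had 0.57 (log2 fold change, SE 0.430, edgeR adjusted p = 0.704) and Plcb2 0.10 (SE 0.114, adjusted p = 0.816). Pak6 shared the high library outside Puma-/- with Ankrd63, at 3.93 normalized CPM in replicate 2 of those labelled G3 mTerc-/-Puma-/- and 0.447 to 1.67 in the other 14.

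Gchfr was the called gene near Ankrd63. It encodes the regulatory protein of GTP cyclohydrolase and lies 463810 bases away. Puma-/- libraries had 1.57, 2.17, 1.95 and 1.39 normalized CPM. WT libraries had 0.346, 0.475 and 0.514, G3 mTerc-/-Puma+/+ libraries 0.522, 1.004, 0.778 and 0.402, and those labelled G3 mTerc-/-Puma-/- 0.252, 0.680, 0.494 and 0.455. Each Puma-/- library was above each of the 11 others. The log2 fold change was 1.77 (SE 0.246, edgeR adjusted p = 0.00474), and unlike Ankrd63 its level in replicate 2 of the last group was low. Without that replicate, Ivd, an enzyme gene of leucine breakdown, also passed and was lower in Puma-/- (log2 fold change -0.39, edgeR adjusted p = 0.00767), where with all 15 libraries its adjusted p was 0.0966. None of the 5 genes lies on chromosome 3 or 7, where Terc and Bbc3 are.

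**Figure D3:**
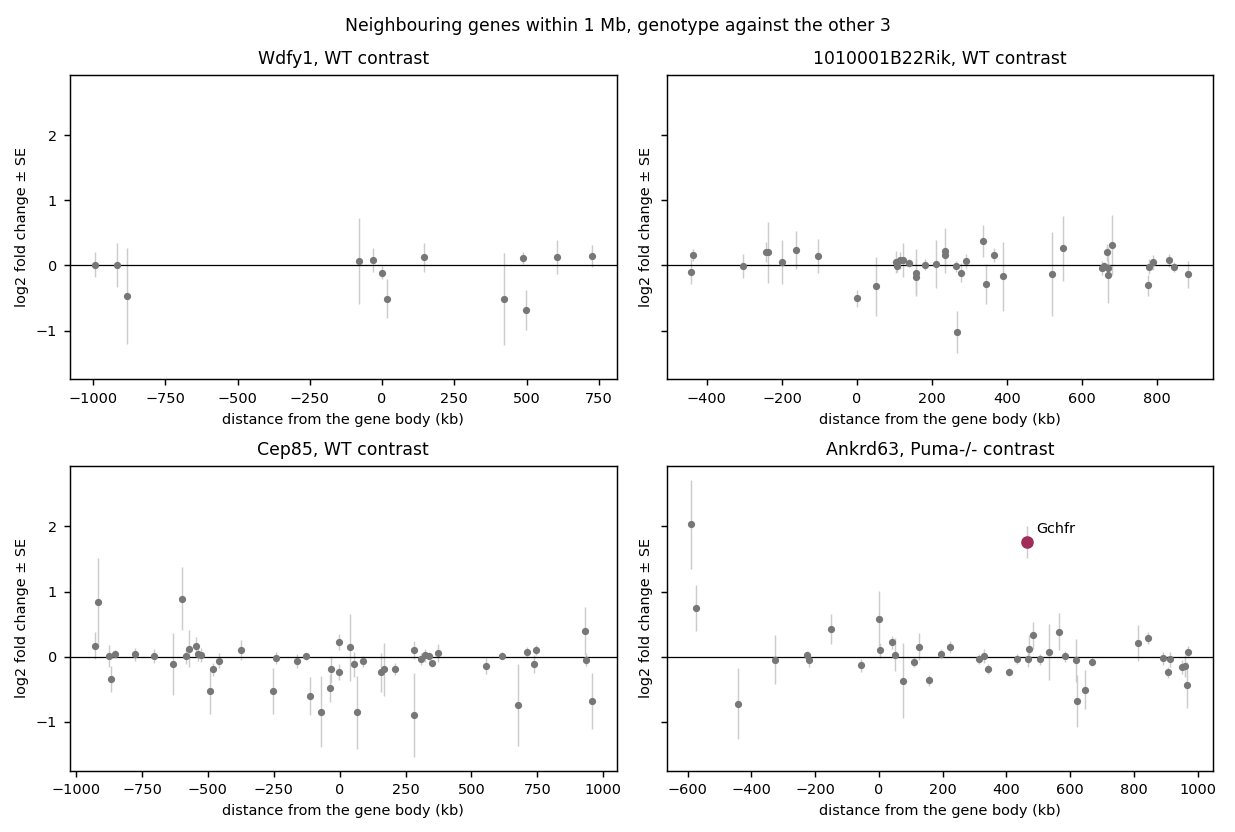
Log2 fold change with SE (y axis) of the tested genes within 1 Mb of each gene, against distance from its body in kb (x axis), for the genotype named in each panel against the mean of the other 3; the genes of the panel for 1010001B22Rik are also those around Gm15446. The red point, Gchfr at 1.77, was the only neighbour called in the fit of all 15 libraries.

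Genes in 5 lists drawn up around the known roles of these genes, none of them a complete family, were tested next, and 0 of the listed genes passed in either direction. In the TRIF pathway, 0 of 17 tested genes were called in WT and 0 had an unadjusted p under 0.05, with a median log2 fold change of 0.06 beside -0.01 over all genes. Cd14, a coreceptor of Toll-like receptor 4, and the chemokine gene Ccl5 had the widest values, 0.72 (SE 0.402) and -0.53 (SE 0.478). Ifnb1, the 18th of the list, was under the count filter. Among other FYVE domain proteins, 0 of 15 were called, with Wdfy2 at 0.20 (SE 0.249) and Plekhf2 at 0.18 (SE 0.0980) as the widest. The DESeq2 and limma-voom tests also called 0 in these lists.

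Centriole duplication genes were likewise not called in WT, 0 of 17, with Poc5 at 0.16 (SE 0.0885) and Nek2 at 0.16 (SE 0.105). Stil, whose protein works with Cep85 in centriole assembly, was at 0.13 (SE 0.0989). Of 12 corepressors that zinc finger repressors recruit, 0 were called in WT, and the widest were Fam208a at -0.22 (SE 0.130) and Trim28, the central corepressor, at 0.12 (SE 0.0958). In these 2 lists 0 genes had an unadjusted p under 0.05. Of 31 listed genes of the ankyrin repeat family, 30 were tested, 0 were called in Puma-/- and 1 had an unadjusted p under 0.05, Ankrd13c. The widest were Ankrd42 at -0.63 (SE 0.301, adjusted p = 0.528) and Ankrd6 at 0.42 (SE 0.241, adjusted p = 0.600), and the median was 0.07. The list did not hold every member of the family. Ankrd35, outside it, was called higher in Puma-/- (log2 fold change 1.36, SE 0.245, edgeR adjusted p = 0.0247), with 1.29 to 1.80 normalized CPM in Puma-/- and 0.328 to 1.08 elsewhere, so that the groups did not overlap. It lies on chromosome 3, 255272 bases from Terc.

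Genes with the most similar levels over the 15 libraries were then listed by Pearson's r of log2 CPM, as a description. These libraries share their genotypes, so r mostly records the same steps between groups. For Wdfy1 the closest was Cdk5rap1, whose enzyme modifies transfer RNA (r = 0.90). Its normalized CPM was 29.0, 14.3 and 27.5 in WT, with replicate 2 lowest as for Wdfy1, and 7.87 to 13.7 elsewhere. The next were Snord88c (r = 0.83), Efcab7 (0.80), Gm5944 (0.80) and Gm24378 (0.76), and the most opposite were 1010001B22Rik (-0.92) and Gm15446 (-0.89). Snord88c and Gm24378 are short RNAs that reached at most 0.257 CPM.

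For Gm15446 the closest was 1010001B22Rik (r = 0.95), followed by Armc2 (0.84), Lrmda (0.82), 1700007K13Rik (0.81) and 6820408C15Rik (0.79). Lrmda, a gene of melanocyte differentiation, had 5.20, 1.15 and 7.08 normalized CPM in WT and 9.56 to 13.4 elsewhere, which is a drop without overlap but also with a wide spread within WT. Armc2 had 0.354 to 0.400 in WT and 0.443 to 0.611 elsewhere. For 1010001B22Rik the list after Gm15446 was Armc2 (0.86), Cd1d2 (0.79), A930004D18Rik (0.79) and Mir1898 (0.77). Beside Wdfy1, the most opposite were Cdk5rap1 (-0.83) for Gm15446 and Gm26813 (-0.82) for 1010001B22Rik.

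For Cep85 the closest was Gm26880, a lincRNA on the same chromosome, 12321982 bases away (r = 0.94). It had 9.05, 14.7 and 10.5 normalized CPM in WT, and 8.46, 2.44, 8.17 and 3.22 in those labelled G3 mTerc-/-Puma-/-, where it was high in replicates 1 and 3 and low in 2 and 4, as Cep85 was. In Puma-/- it had 1.92 to 5.58 and in G3 mTerc-/-Puma+/+ 3.41 to 4.02. Gm42428, a lincRNA on chromosome 5, had the same split within that group, at 3.44, 0.792, 2.90 and 1.40 (r = 0.86). Elsewhere its levels were 3.43 to 5.55 in WT, 0.376 to 2.81 in Puma-/- and 1.37 to 1.86 in G3 mTerc-/-Puma+/+. Replicate 3 of the split group was thus only just above the highest Puma-/- library. Gm42918 (0.83), Zfp954 (0.81) and Sik1 (0.78) followed, and 4933430I17Rik (-0.86) and Gm17509 (-0.85) were the most opposite.

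For Ankrd63 the closest was Il5ra, which encodes the receptor for interleukin 5 (r = 0.92). It had 0.654 to 0.901 normalized CPM in Puma-/-, 0.671 in replicate 2 of those labelled G3 mTerc-/-Puma-/- and 0.173 to 0.452 in the others, so that the same 5 libraries were high for both genes. Capn3 (0.87), a protease gene on the same chromosome 1752056 bases away, had 3.62 to 4.35 in Puma-/- and 4.03 in that replicate, and 1.85 to 3.11 in the others. Gm973 (0.87), Gm15265 (0.87) and Clec18a (0.86) followed. The most opposite were Gm17767 (-0.86) and Gm13910 (-0.84).

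**Figure D4:**
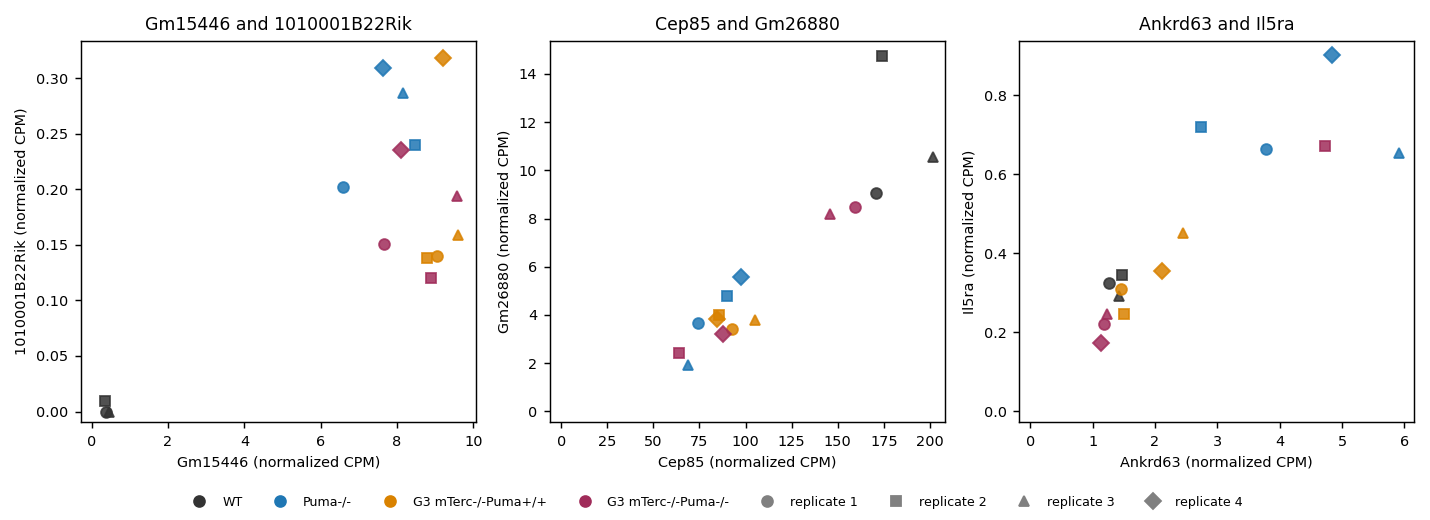
Normalized CPM of Gm15446, Cep85 and Ankrd63 (x axes) and of the gene with the most similar level (y axes), with each point a library, coloured by genotype and shaped by replicate number. In the first panel the WT libraries sit near the origin apart from all others, in the middle panel replicates 1 and 3 of those labelled G3 mTerc-/-Puma-/- sit near WT, and in the last panel replicate 2 of that group sits among Puma-/-.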

How the data were processed

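RNA of lineage-negative bone marrow cells was sequenced in 15 libraries as poly(A)-selected, stranded TruSeq libraries read in pairs. Per the submitters' processing notes, reads were trimmed with Trimmomatic 0.38 and aligned to mm10 (GRCm38) with STAR 2.5.2b. The authors deposited raw counts per Ensembl gene, without normalization. The annotation release and strand setting are not given in the sources used here. Symbols and positions came from GENCODE vM21, in which 563 identifiers had no symbol. Groups and replicate numbers came from the sample titles.

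In R 4.3.3, counts were scaled by TMM, filtered by filterByExpr and fitted over all 4 genotypes with edgeR 4.0.16 (quasi-likelihood test, each genotype against the mean of the other 3, Benjamini-Hochberg adjusted p under 0.05). All 15 libraries entered, since the labels assign all of them and the study states no exclusion. log2 CPM used a prior count of 2. DESeq2 1.42.0 and limma 3.58.1 (voom) were alternatives, with other scalings, count filters, libraries, a replicate block and an Xist covariate. Calculations were checked on simulated counts. Intervals and limits cover counting error only. Named were the 5 genes, Bbc3, Terc, the nearest and the called neighbours, the 5 most and 2 least similar genes, and in each list the called genes or the 2 with the largest change. Genes named beyond that rule (Mrpl44, Gm26808, Gm6257, 9430002A10Rik, Ivd, Stil, Ankrd13c and Ankrd35, and those of the closing observations) were chosen after their values were seen. A further neighbouring gene is not reported here. The 5 genes and the lists were chosen with earlier results of these data known. The labels do not say that libraries are separate animals, so p-values measure the spread between these samples, which may be technical, and between replicates of a genotype counts differed by more than counting error (chi-square per gene 39.7 to 768).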

Additional observations from a re-analysis of the deposited data

Results flagged for a closer look

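Of 24 groups of 4 libraries examined, 5 held a library whose gap to the nearest other was over 0.829 of the range of its group. The rule flags about 1 in 20 by chance where groups are independent. These groups share libraries and include the genes chosen from these counts, so the flags are a description and no test. Replicate 2 of those labelled G3 mTerc-/-Puma-/- had 29.5 normalized CPM of Wdfy1, beside 18.9 to 19.2 in its group, and 4.73 of Ankrd63, beside 1.13 to 1.23. Replicate 4 of G3 mTerc-/-Puma+/+ had 0.318 normalized CPM of 1010001B22Rik, from 34 counts, beside 0.138 to 0.159. Puma-/- replicate 2 had 6.83 normalized CPM of Bbc3, beside 5.04 to 5.18. G3 mTerc-/-Puma+/+ replicate 1 had 0 counts of Terc, beside 1 count in each other library of its group, a difference that counting error cannot resolve. The values of Wdfy1 and Ankrd63 come from the same library, the one with the highest erythroid, myeloid, and T and NK cell marker sums.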

How the results depend on the processing

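The signs of all 5 differences held under every alternative run. The difference of 1010001B22Rik depends on the prior count, at -5.00 with 0.5 and -2.41 with 5. Without each library in turn it ranged from -3.66 to -3.34, and the other differences from -4.50 to -4.32 (Gm15446), 0.99 to 1.31 (Wdfy1), 0.88 to 1.03 (Cep85) and 1.18 to 1.56 (Ankrd63). Autosomal genes with a 4-fold gap below all others in WT numbered 2 in the 19 alternatives run for it. The listed pathway genes had 0 calls in all 24 alternatives run for them.

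Genes called over the whole table moved more. In the order WT (10), Puma-/- (79), G3 mTerc-/-Puma+/+ (12) and those labelled G3 mTerc-/-Puma-/- (121), DESeq2 gave 30, 248, 105 and 531, limma-voom 5, 79, 7 and 18, and an Xist covariate 6, 17, 10 and 38. With 14 libraries, without replicate 2 of the last group, Puma-/- had 209 and the last group 27, and 241 genes were higher in Puma-/- without overlap. With no count filter the last group had 185, and 38 genes were higher in WT without overlap. Neighbouring genes called were 3 with 14 libraries and 2 with DESeq2. Leave-one-out counts were 5 to 14, 27 to 209, 8 to 16 and 12 to 311, and 1 to 3 for neighbours. The WT count fell to 5 or 6 without WT replicate 3, any Puma-/- library, G3 mTerc-/-Puma+/+ replicate 1, 3 or 4, or replicate 3 or 4 of the last group. Genes without overlap ranged from 21 to 349 (WT higher), 34 to 269 (WT lower) and 140 to 261 (Puma-/- higher), with the highest WT values without WT replicate 2. The Puma-/- count was 36, 27 and 46 without Puma-/- replicate 2, 3 and 4. Without single libraries, the log2 fold change of Gm26779 ranged from -0.0858 (without WT replicate 1, reversed) to 0.28. The causes were not tested, and fewer libraries also leave fewer to overlap.

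The replicate block gave 4, 27, 9 and 27 calls and 1 neighbour. Same-numbered libraries of different genotypes had correlations of their deviations from -0.25 to 0.18 (median 0.048), and 4 of 15 libraries were closest to their own number. No pairing by number was seen, which cannot show that the samples are unpaired. Of the 5 most similar genes, with Spearman's rho 0 remained for Wdfy1, Gm15446 and 1010001B22Rik and 3 for Cep85 and Ankrd63, and with 14 libraries 3 remained for Wdfy1 and 2 for Cep85 and Ankrd63. At this depth 1010001B22Rik in WT cannot be told from 0.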

Other observations

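Further autosomal genes passed the test in the WT contrast, named here after their values were seen. Nnt, which encodes the mitochondrial transhydrogenase that makes NADPH, had 71.4 to 97.8 normalized CPM in WT and 45.6 to 72.0 elsewhere, so that the ranges just overlapped (log2 fold change 0.55, SE 0.0881, edgeR adjusted p = 0.0382). Cdk5rap1 had 1.19 (log2 fold change, SE 0.178, edgeR adjusted p = 0.0258). Mab21l1 had 0.277, 0.363 and 1.56 normalized CPM in WT and 0.0294 to 0.202 elsewhere (log2 fold change 3.26, SE 0.496, adjusted p = 0.0258). Ighv9-2, an immunoglobulin heavy chain variable gene, had 265 normalized CPM in WT replicate 2 and 0.0430 to 3.49 in the other 14 libraries.

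In Puma-/-, Gm6257 had 0.480 to 0.792 normalized CPM, beside 0.00630 to 0.0295 in the other 11 libraries. Like that of the chromosome 5 pair, this step had no overlap, but it ran in the opposite direction. The value of 0.0295 stands for 3 counts, and Gm6257 passed the count filter through the Puma-/- libraries, in which it is high. 9430002A10Rik had 1.51 to 2.70 in Puma-/- and 0.327 to 0.661 elsewhere.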
